A study of Mus musculus with 11 samples.

Results

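Kinesin, dynein and tubulin genes form the microtubule transport system of the cell, and their RNA levels were followed here in striatal tissue of BACHD mice given SPI-24, SPI-77 or vehicle. The members were taken by name. Names that begin with Kif and a digit or c, Klc1 to Klc4, and names that begin with Dync, Dynl or Tub (alpha, beta and gamma) gave 75 genes of 20957 in the table, pseudogenes left out. Of these, 66 had a normalized read count of at least 10 in at least 3 of the 11 libraries and are described below, out of 16768 genes that met the same limit. They fall into 41 motor genes (34 named Kif and 7 cytoplasmic dynein chains named Dync), 11 light chains (4 of kinesin and 7 of dynein) and 14 tubulins. Kif1bp, a protein that binds kinesins of the Kif1 group and is not itself a motor, is counted with the motors because of its name. The 9 genes under the limit were Dynlt1c, Kif12, Kif14, Kif18a, Kif18b, Kif20b, Kif23, Kif28 and Kif2c, and the highest value of any of them in a library was 21.3, for Kif2c.

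BACHD mice are of the FVB/N background and express human mutant huntingtin from a bacterial artificial chromosome that holds the whole gene, with the mouse Htt gene intact. All groups carried it, so there was no group without the transgene. The labels give 4 libraries of mice injected with DMSO, the vehicle, 4 with SPI-24 and 3 with SPI-77, each on 4 days and killed 6 h after the last injection, and they call each library a biological replicate. SPI-24 and SPI-77, known here by code names, are small molecules that block Spt5, a transcription elongation factor, from binding Pol II, and the labels give no dose, so the comparison of the compounds is not one at matched doses. The age of the animals is not in the labels.

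The libraries held 10.2 M to 33.8 M reads, recovered from the normalized values. SPI-24 replicate 4 stood apart in having 16263 genes detected at 26.0 M reads, while the others had 17932 to 20313. Xist exceeded the Y-linked Ddx3y in 2 of 4 DMSO, 3 of 4 SPI-24 and 0 of 3 SPI-77 libraries, so sex was mixed in the first 2 groups and not in the third. Markers of several cell types differed as well. Of 17 markers of medium spiny neurons, the main neurons of the striatum, 0 passed as higher and 9 as lower with SPI-77, and the mean log2 level of the list came to 11.1 ± 0.848 in the DMSO group (SD, n = 4), to 9.75 ± 1.74 in the SPI-24 group (SD, n = 4) and to 8.37 ± 0.353 in the SPI-77 group (SD, n = 3). Of 5 smooth muscle markers 4 passed as higher with SPI-77, with summed levels of 591 to 1322 with DMSO and 2362 to 2675 with SPI-77. Of 6 astrocyte markers 2 passed as higher, Gfap (1.53) and Aldh1l1 (0.51), and 3 as lower, and of 10 thalamic markers 2 passed as higher and 0 as lower. Of 6 microglial markers 2 passed as lower, and of 6 cortical and 5 choroid plexus markers 0 passed by limma or edgeR, while 1 of each list was lower at an unadjusted p below 0.05 and by DESeq2. Only the medium spiny level was entered into a fit, described below, and for SPI-77 against DMSO it could not be told apart from group there. In this level SPI-24 replicates 2 and 3, at 8.31 and 8.27, lay within the SPI-77 range of 8.14 to 8.78. SPI-24 replicates 1 and 4 were at 10.68 and 11.73. The part of the other markers in the results on tubulins and kinesins was not tested. Neurons express most of the genes described here, and in tissue RNA fewer cells of a type and less RNA per cell cannot be told apart.

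Microtubules are built from dimers of alpha- and beta-tubulin, and gamma-tubulin starts their growth at nucleation sites. Kinesins are motors that, for the most part, walk toward the plus ends, which in axons lie away from the cell body. Cytoplasmic dynein walks toward the minus ends and brings cargo back. Light chains do not move by themselves: kinesin light chains tie the kinesin-1 heavy chains Kif5a, Kif5b and Kif5c to cargo, and the dynein light chains bind the dynein tail. Huntingtin itself is known to bind dynein and, through Hap1, both dynactin and kinesin, and transport along axons is a known concern in Huntington's disease.

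The beta-tubulins are related proteins that each end in an acidic carboxy-terminal tail, the part of the microtubule surface that is modified after synthesis and that motors touch. These ends are shown because the reads that separate 1 beta-tubulin from another can come only from stretches that differ. Each line starts at coding position 1270 and runs to the last coding base before the stop codon, in the C57BL/6J reference GRCm38. Capitals mark the bases at alignment positions that are not identical in all 6 genes.
Tubb2a: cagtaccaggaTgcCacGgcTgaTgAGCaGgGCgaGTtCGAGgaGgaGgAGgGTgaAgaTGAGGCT
Tubb2b: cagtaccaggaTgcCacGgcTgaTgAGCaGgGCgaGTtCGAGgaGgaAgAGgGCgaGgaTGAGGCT
Tubb3: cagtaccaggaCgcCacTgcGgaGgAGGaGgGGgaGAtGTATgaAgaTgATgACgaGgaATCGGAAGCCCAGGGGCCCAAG
Tubb4a: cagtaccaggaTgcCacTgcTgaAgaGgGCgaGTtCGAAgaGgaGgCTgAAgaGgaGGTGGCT
Tubb4b: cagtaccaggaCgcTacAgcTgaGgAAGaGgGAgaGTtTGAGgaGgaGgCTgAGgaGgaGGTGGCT
Tubb5: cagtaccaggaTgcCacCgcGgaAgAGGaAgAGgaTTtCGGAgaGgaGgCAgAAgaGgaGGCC
Over the coding sequence before these ends, identity to Tubb3 was 84.9% for Tubb2a, 85.0% for Tubb2b, 83.9% for Tubb4a, 83.4% for Tubb4b and 82.7% for Tubb5. Reads that fitted more than 1 place were dropped by the authors. The share of 50-base stretches of a gene's principal transcript that also occur in another gene was 0% for Tubb3, 0.184% for Tubb4a and 0.115% for Tubb5. It was 49.6% for Tubb2a, 39.3% for Tubb2b and 50.9% for Tubb4b. Among alpha-tubulins the share was 82.2% for Tuba1b, 64.3% for Tuba1a and 61% for Tuba1c, which stand near each other on chromosome 15, but 0.181% for Tuba8 and 1.11% for Tuba4a. The levels of the genes with large shares are therefore uncertain, whereas Tubb3, Tubb4a, Tubb5, Tuba8 and the kinesin-1 heavy chains rest on sequence of their own.

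With SPI-77, most tubulins were higher than with DMSO, and 4 of 34 kinesins passed as lower. In all, 12 of the 66 genes (18.2%) passed as higher and 5 (7.58%) as lower at a Benjamini-Hochberg adjusted p below 0.05 by limma. The other 49 did not pass. Over all genes tested, 8.03% passed as higher and 9.14% as lower, so the lower share of the members was near that of all genes. The 12 higher genes were 10 of the 14 tubulins, the dynein light chain Dynlrb1 and the dynein heavy chain Dync1h1. The 5 lower genes were the kinesins Kif5b, Kif21a, Kif16b and Kif5a and the dynein light chain Dynlt3. A change of at least 2-fold, the limit used in the study, was reached by Tuba8 and Tuba1b among the higher genes (1.12% of all genes) and by Kif5b, Kif21a and Kif16b among the lower ones (5.28% of all genes).

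**Figure D1:**
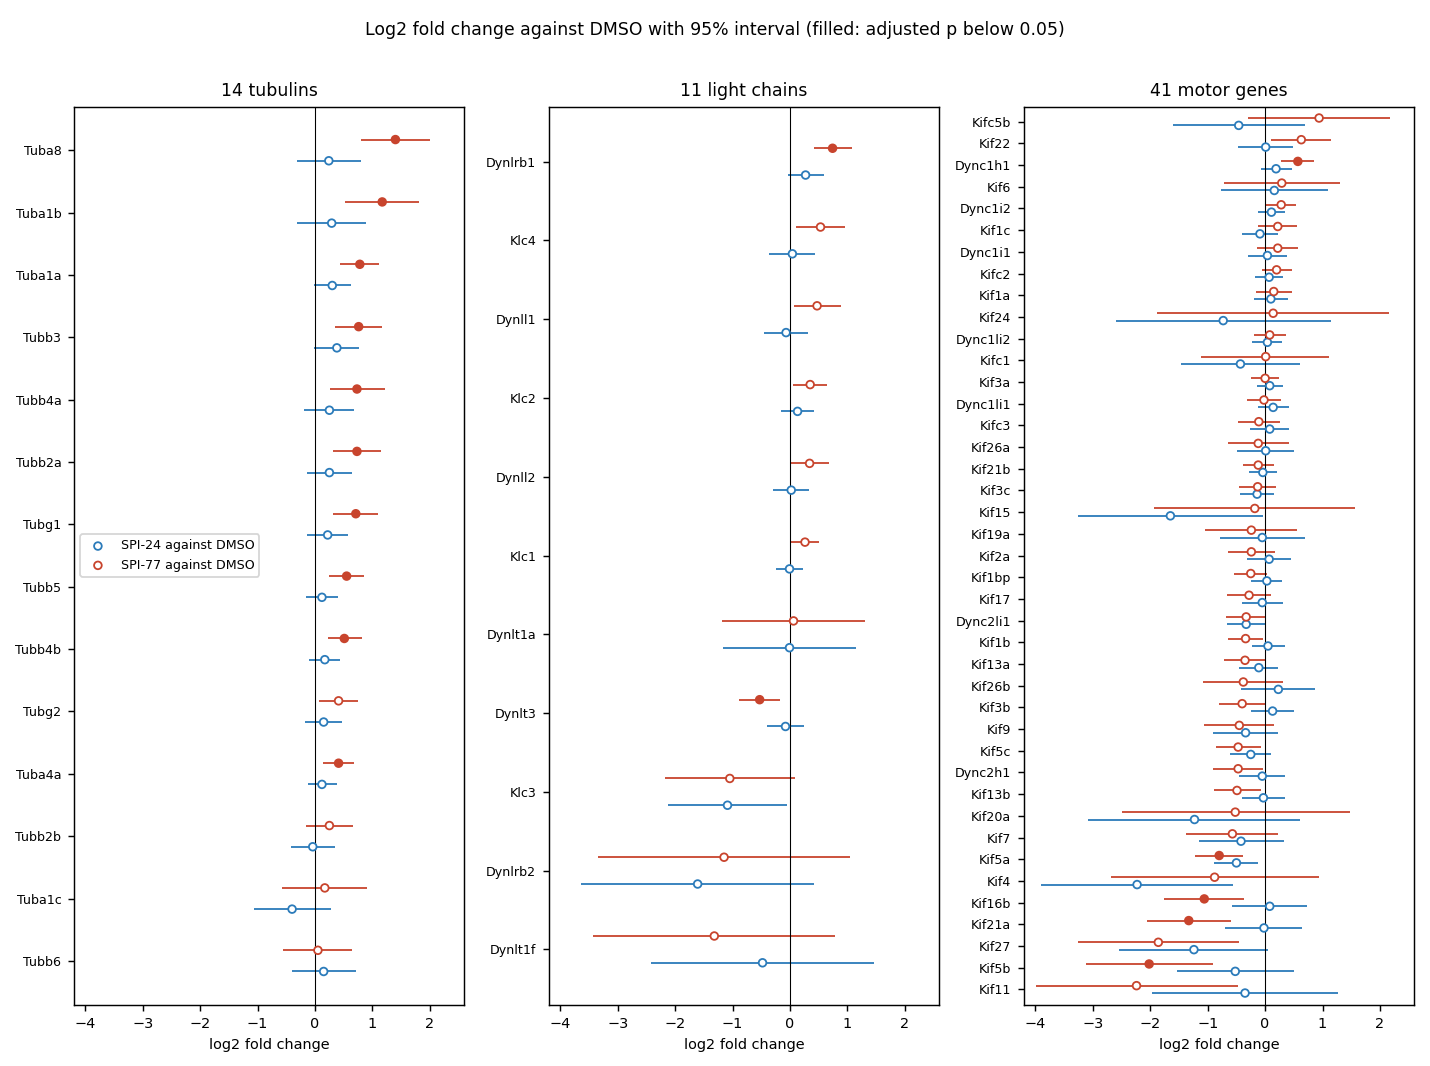
Log2 fold change of each of the 66 genes against DMSO on the x axis, with its 95% interval from limma, for SPI-77 (red) and SPI-24 (blue) in separate panels for tubulins, light chains and motors; filled points passed at an adjusted p below 0.05. With SPI-77 the 14 tubulins all lie to the right of 0 (12 of 14 after correction for GC content) and 29 of 41 motor genes to the left, and no point is filled for SPI-24.

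The calls depended on single libraries. Without DMSO replicate 2, DMSO replicate 4, SPI-77 replicate 1 or SPI-77 replicate 3 no member or other gene of the table passed by limma. At an unadjusted p below 0.05, 14 to 17 members were higher and 7 to 9 lower in these fits. In the fit of all libraries 35.2% of all genes met that limit in either direction. The 12 higher and the 5 lower genes kept their sign in every fit that left out a library. They were chosen for passing in these same libraries, so a kept sign is no separate test of direction. Without DMSO replicate 1 the counts rose to 16 higher and 8 lower, with 13.4% and 15.4% of all genes. Without SPI-77 replicate 2 there were 5 higher and 1 lower (3.73% and 4.61% of all genes). Without DMSO replicate 3 there were 10 higher and 1 lower (5.12% and 5.30% of all genes). Without SPI-24 replicate 2, which enters this comparison only through the shared spread, there were 10 higher and 3 lower (5.85% and 6.92%).

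By class, the median log2 fold change of the 14 tubulins was 0.63, against -0.24 for the 41 motor genes, 0.26 for the 11 light chains and -0.01 for all genes tested. All 14 tubulins lay above 0, from 0.05 for Tubb6 to 1.40 for Tuba8, also with TMM scaling, edgeR and DESeq2, and 12 of 14 did after the correction for GC content described below and with the replicate number as a block (lowest -0.08, Tuba1c). In 9 of the 14 the 3 SPI-77 libraries lay above all 4 DMSO libraries, and this held for 17.2% of all genes. By kind, 4 of 5 alpha-tubulins, 5 of 7 beta-tubulins and 1 of 2 gamma-tubulins passed as higher.

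Tuba8 encodes an alpha-tubulin isotype of low level in most tissues (chr6:121210696-121226854, plus strand, GRCm38). Its normalized read counts were 113, 77.9, 54.0 and 105 in DMSO replicates 1 to 4, 118, 94.8, 86.2 and 103 in SPI-24 replicates 1 to 4, and 256, 179 and 243 in SPI-77 replicates 1 to 3. All SPI-77 libraries lay above all others, and the log2 fold change was 1.40 ± 0.28 (SE, adjusted p = 0.0179, limma). On the opposite strand 368 of its exonic bases overlap Gm15856, and how strand was set in the counting is not stated.

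Tuba1b (chr15:98931425-98934565, minus strand) encodes a widely expressed alpha-tubulin. It had 1414, 614, 1212 and 688 normalized reads in the DMSO libraries, 1045, 1250, 1602 and 768 in the SPI-24 libraries and 1991, 2017 and 2224 in the SPI-77 libraries. DMSO values fell into a higher and a lower pair, and both lay below SPI-77, with a log2 fold change of 1.17 ± 0.30 (SE, adjusted p = 0.0253, limma). Tuba1a, the alpha-tubulin of growing neurons, had 5094, 3636, 4559 and 3371 with DMSO and 6198, 6670 and 8499 with SPI-77, a log2 fold change of 0.78 ± 0.16 (SE, adjusted p = 0.0179, limma). Tuba4a changed less, by 0.41 ± 0.13 (SE, adjusted p = 0.0464, limma), and 1379 of its exonic bases overlap Stk16 on the other strand. Tuba1c, the least abundant of the Tuba1 genes, had a log2 fold change of 0.17 with a 95% interval of -0.57 to 0.90.

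Tubb3 (chr8:123411424-123422015, plus strand) encodes the beta-tubulin that marks neurons. Its values were 9230, 6023, 10211 and 6662 with DMSO, 9885, 9986, 12767 and 8523 with SPI-24 and 12503, 12732 and 14687 with SPI-77. The SPI-77 libraries lay above the DMSO libraries without overlap, while SPI-24 replicate 3 lay within the SPI-77 range. The log2 fold change with SPI-77 was 0.76 ± 0.19 (SE, adjusted p = 0.0241, limma). Tubb5, a beta-tubulin of most cell types and without close copies in the reads, had 10641, 8822, 8997 and 9538 with DMSO and 15835, 12701 and 13382 with SPI-77, a log2 fold change of 0.55 ± 0.14 (SE, adjusted p = 0.0241, limma).

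Tubb4a, a beta-tubulin abundant in oligodendrocytes as well as neurons, had the highest level per kb of transcript of all 66 genes. Its normalized counts were 46446, 31967, 45435 and 26004 with DMSO and 46137, 59938 and 79841 with SPI-77, so the lowest SPI-77 library overlapped the DMSO group. The log2 fold change was 0.73 ± 0.22 (SE, adjusted p = 0.0397, limma). The summed level of 8 oligodendrocyte markers was 286250 to 489333 with DMSO and 328180 to 684060 with SPI-77, 0 of the 8 passed in either direction, and the highest marker sum was in SPI-77 replicate 3, which also had the most Tubb4a. The part of the markers in the Tubb4a result was not tested. Tubb2a rose by 0.73 and Tubb4b by 0.51 on the log2 scale, whereas Tubb2b, whose coding end above closely resembles that of Tubb2a, had 0.25 with a 95% interval of -0.16 to 0.66.

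Tubg1, the gamma-tubulin of nucleation sites, had 1418, 994, 1224 and 959 normalized reads with DMSO and 1785, 1806 and 1974 with SPI-77, without overlap, and a log2 fold change of 0.71 ± 0.18 (SE, adjusted p = 0.0244, limma). Its neighbour Tubg2 on chromosome 11 had 0.41 with a 95% interval of 0.07 to 0.75 and did not pass. Tubb6, on chromosome 18, had 56.6 to 94.9 normalized reads with DMSO and 69.6 to 86.6 with SPI-77, and the ranges overlapped.

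Among the kinesins, 0 of 34 passed as higher with SPI-77 by limma and 4 passed as lower (11.8%), a share near the 9.14% of all genes that passed as lower. At an unadjusted p below 0.05, which 35.2% of all genes met in either direction, there were 1 higher and 9 lower. By edgeR there were 0 higher and 4 lower, beside 7.38% and 9.80% of all genes. DESeq2 gave 0 and 6, the added ones being Kif11 and Kif27, beside 11.2% and 13.9% of all genes. The 4 that passed by limma belong to the 15 kinesins listed for transport of cargo in neurites, of which 13 had a log2 fold change below 0 and the median was -0.35. In 2 of the 15, Kif5a and Kif16b, the SPI-77 libraries lay below all DMSO libraries, and over all genes this held for 15.3%. Of the 6 spindle kinesins, the 6 kinesins of cilia and the 7 others, 0 passed by limma in either direction. Among all 34 kinesins 26 lay below 0.

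**Figure D2:**
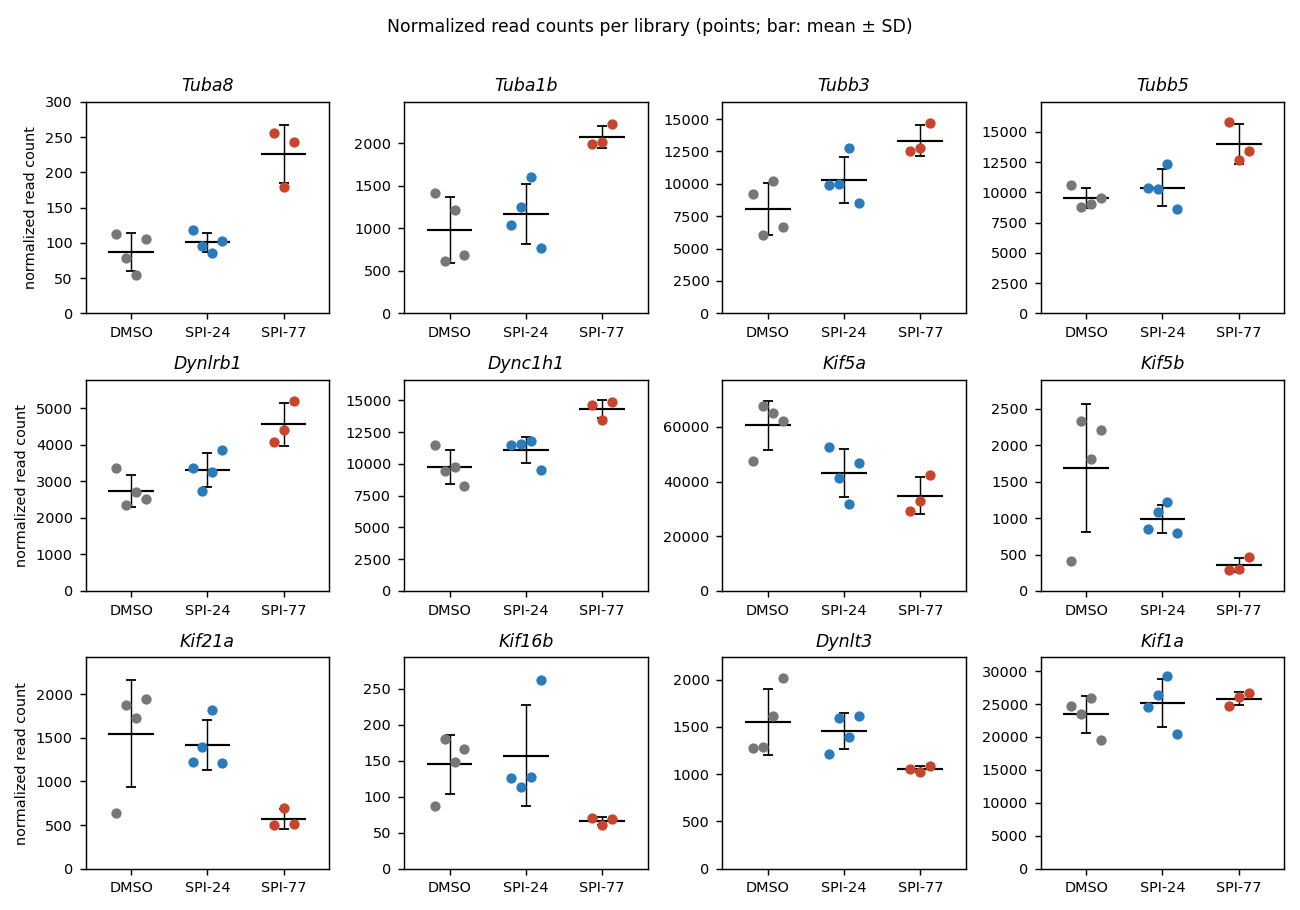
Normalized read counts (y axis, from 0) of 12 genes in the DMSO, SPI-24 and SPI-77 libraries, with the mean and SD of each group as a bar. DMSO replicate 1, the leftmost grey point, lies at 408 for Kif5b and 638 for Kif21a, far below the other DMSO libraries, while Tuba8 separates SPI-77 from both other groups.

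Kif5b encodes the kinesin-1 heavy chain found in all tissues. Its values were 408, 2329, 1813 and 2208 in DMSO replicates 1 to 4, 857, 1087, 1219 and 795 in the SPI-24 libraries and 293, 303 and 462 in the SPI-77 libraries. DMSO replicate 1 lay within the SPI-77 range and the other 3 DMSO libraries lay above every treated library. The log2 fold change with SPI-77 was -2.02 ± 0.51 (SE, adjusted p = 0.026, limma), and without DMSO replicate 1 it was -2.61 ± 0.21 (SE, adjusted p = 0.000161, limma). The size of the fitted change of Kif5b thus moved with 1 library.

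Kif21a, a kinesin-4 family member that restrains microtubule growth at the cell cortex (chr15:90933276-91049948, minus strand), showed the same pattern. It had 638, 1870, 1723 and 1946 normalized reads with DMSO, 1225, 1398, 1820 and 1208 with SPI-24 and 499, 699 and 507 with SPI-77. DMSO replicate 1 again fell within the SPI-77 range, and the other DMSO libraries and all SPI-24 libraries lay above it. The log2 fold change was -1.33 ± 0.34 (SE, adjusted p = 0.0253, limma) and -1.71 ± 0.18 (SE, adjusted p = 0.000508, limma) without DMSO replicate 1.

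Kif5a, the neuronal kinesin-1 heavy chain (chr10:127225696-127263348, minus strand), was the most abundant motor per kb. Its values were 47710, 67546, 65107 and 62157 with DMSO, 52515, 41432, 31873 and 46894 with SPI-24 and 29094, 33013 and 42468 with SPI-77. No SPI-77 library reached the lowest DMSO library, and the log2 fold change was -0.80 ± 0.19 (SE, adjusted p = 0.0215, limma). Its sister Kif5c had -0.47 with a 95% interval of -0.85 to -0.08 and an adjusted p of 0.0835 by limma. The share of Kif5a in the 3 heavy chains per kb was 82.3% ± 2.74 (SD, n = 4) with DMSO and 80.5% ± 0.608 (SD, n = 3) with SPI-77, and Kif5b made up 2.28% ± 1.07 and 0.843% ± 0.0667.

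Kif16b, a kinesin of early endosomes (chr2:142617474-142901531, minus strand), was a low transcript with 87.3, 180, 148 and 166 normalized reads with DMSO and 70.6, 60.5 and 69.6 with SPI-77. The ranges did not overlap, and the log2 fold change was -1.06 ± 0.33 (SE, adjusted p = 0.0427, limma). With SPI-24 it had 126, 114, 127 and 262, the last in replicate 4. Kif1a, which carries synaptic vesicle precursors, did not pass, with 19511 to 25947 normalized reads with DMSO and 24720 to 26718 with SPI-77 and a log2 fold change of 0.15 with a 95% interval of -0.16 to 0.46. Kif3a, a subunit of the kinesin-2 motor, stayed between 1600 and 1994 in all 11 libraries, and the interval of its change with SPI-77 was -0.25 to 0.25. Kif1b had -0.34 (adjusted p = 0.108, limma) and passed without DMSO replicate 1 at -0.46 (adjusted p = 0.0137). Kif21b, the close relative of Kif21a, had -0.12 with an interval of -0.39 to 0.15.

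Of the 7 dynein chains counted with the motors, 1 passed, as higher. Dync1h1 (chr12:110601452-110666945, plus strand) encodes the heavy chain that contains the motor. It had 11468, 9470, 9753 and 8239 normalized reads with DMSO, 11487, 11572, 11789 and 9521 with SPI-24 and 14646, 13493 and 14859 with SPI-77, where every library lay above all others. The log2 fold change was 0.57 ± 0.13 (SE, adjusted p = 0.0205, limma). The intermediate chains Dync1i1 and Dync1i2 had 0.22 and 0.28, the light intermediate chain Dync1li1 had -0.02, and Dync2h1, the heavy chain of the dynein of cilia, had -0.47, with adjusted p from 0.112 to 0.938 by limma. For Dync1i2 the adjusted p was 0.0252 after a correction for GC content, with a log2 fold change of 0.58.

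Light chains were split. Of the 4 kinesin light chains 0 passed by limma, edgeR or DESeq2, and 3 were higher at an unadjusted p below 0.05, which 35.2% of all genes met in either direction. Klc1, Klc2 and Klc4 had log2 fold changes of 0.26, 0.35 and 0.53 with adjusted p of 0.119, 0.0963 and 0.0756 by limma. The SPI-77 libraries lay above the DMSO libraries in all 3, and this held for 17.2% of all genes. After correction for GC content 1 of the 4 lay above 0, and the values were -0.04 for Klc1 and -0.02 for Klc2. Klc3, a minor light chain, had 71.7 to 112 normalized reads with DMSO and 17.9 to 71.5 with SPI-77. Dynlrb1, a roadblock light chain of dynein (chr2:155236533-155250277, plus strand), had 3371, 2349, 2698 and 2523 with DMSO, 3371, 2738, 3242 and 3857 with SPI-24 and 4083, 4392 and 5209 with SPI-77, all 3 above the others. Its log2 fold change was 0.74 ± 0.16 (SE, adjusted p = 0.0179, limma). Dynlt3, of the Tctex light chain family on chromosome X, had 1281, 1289, 1615 and 2019 with DMSO and 1050, 1026 and 1089 with SPI-77, and its log2 fold change was -0.53 ± 0.17 (SE, adjusted p = 0.0461, limma). With the correction for GC content the change of Dynlt3 turned to 0.05 (adjusted p = 0.823). Dynll1 and Dynll2, the LC8 light chains that many proteins besides dynein bind, had 0.47 and 0.34 and did not pass.

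The levels of each class were also summed, on a scale of normalized reads per kb of transcript. The 14 tubulins summed to 36640 ± 7451 in the DMSO group (SD, n = 4), to 42416 ± 1961 in the SPI-24 group (SD, n = 4) and to 58464 ± 8225 in the SPI-77 group (SD, n = 3). The 41 motor genes summed to 27116 ± 1714, 24494 ± 798 and 23015 ± 1619 in the same order, and the light chains to 16753 ± 1284, 17596 ± 891 and 22070 ± 1593. Tubb4a, the gene of highest level per kb, made the largest single part of the tubulin sum. Its lowest SPI-77 library overlapped the DMSO group, and no tubulin sum was formed without it. The lower motor sum rested on Kif5a. Without it the other motor genes summed to 17484 ± 424, 17634 ± 924 and 17477 ± 540, and within the class the dynein chains summed to 3729 ± 136, 3945 ± 294 and 4319 ± 129. The ratio of tubulins to motors was 1.82, 1.10, 1.49 and 1.06 in the DMSO libraries, 1.73, 1.68, 1.87 and 1.65 in the SPI-24 libraries and 2.39, 2.48 and 2.73 in the SPI-77 libraries, so that SPI-77 lay above both other groups and SPI-24 overlapped DMSO replicate 1. Without Kif5a the ratio was 1.64 to 2.63 with DMSO, 2.28 to 2.58 with SPI-24 and 3.03 to 3.74 with SPI-77. For kinesin-1, the ratio of heavy chains to light chains lay in the other direction, at 1.97 ± 0.320 with DMSO, 1.42 ± 0.348 with SPI-24 and 0.947 ± 0.208 with SPI-77. SPI-24 replicate 3, at 0.974, lay within the SPI-77 range of 0.735 to 1.15, and DMSO replicate 1, at 1.50, was the DMSO library nearest to the treated ones. These sums and ratios were formed after the members were known, were not corrected for GC content and were not tested. After that correction, described below, the log2 fold change with SPI-77 was -0.04 for Klc1, -0.02 for Klc2 and -1.03 for Kif5a. The median was 0.39 for tubulins and -0.34 for motors.

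**Figure D3:**
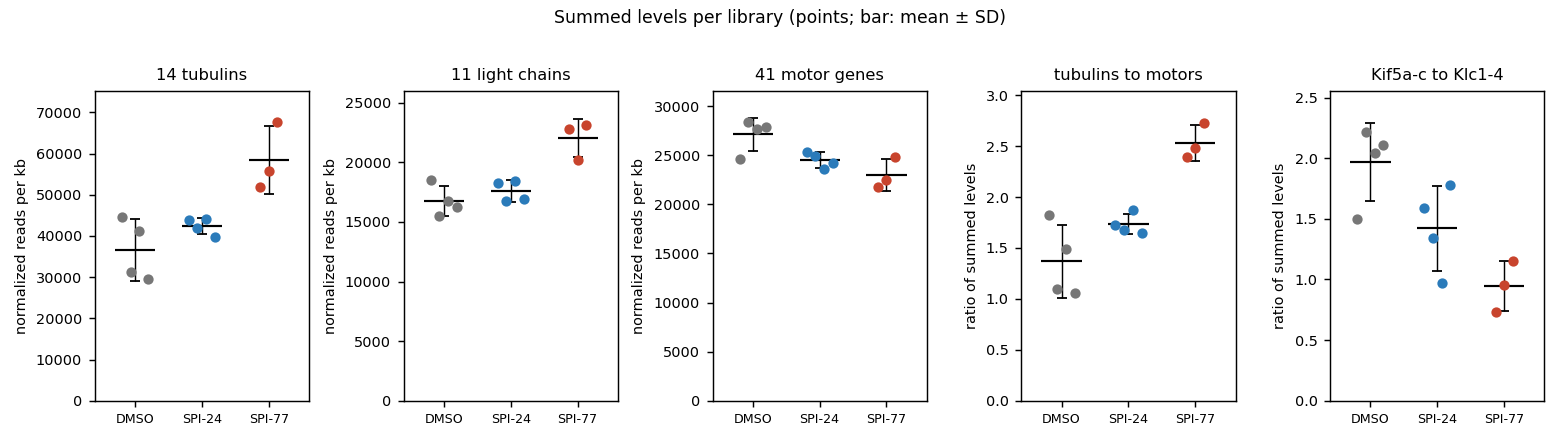
Summed level of tubulins, light chains and motor genes in normalized reads per kb of principal transcript, the ratio of tubulins to motors, and the ratio of kinesin-1 heavy to light chains, each from 0, per library with group mean and SD. The tubulin-to-motor ratio lies between 2.39 and 2.73 in the SPI-77 libraries and at most at 1.87 elsewhere. Tubb4a is the largest single part of the tubulin sum, and the lower motor sum rests on Kif5a. The sums and ratios are not corrected for GC content. The mean heavy-to-light ratio of kinesin-1 is lowest with SPI-77, where SPI-24 replicate 3 (0.974) lies within the SPI-77 range.

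With SPI-24, no kinesin, dynein or tubulin gene passed against DMSO. By limma 0 of 66 passed in either direction (0% of all 16768 genes), and edgeR and DESeq2 on the recovered reads also gave 0. At an unadjusted p below 0.05 there were 0 higher and 5 lower, beside 3.73% of all genes in either direction. The medians were 0.19 for tubulins, -0.04 for motors and -0.01 for light chains, with -0.02 for all genes tested, and 12 of 14 tubulins lay above 0. The 5 with the lowest p were Kif4 (-2.23), Kif5a (-0.50), Klc3 (-1.09), Kif15 (-1.65) and Dync2li1 (-0.33), with an adjusted p of 0.975 each. Kif5a had a 95% interval of -0.89 to -0.12, in which the DMSO and SPI-24 values overlapped. Kif4 and Kif15, motors of the mitotic spindle, are low transcripts that were at 0 in SPI-24 replicate 4, where Kif20a and Kif24 were at 0 as well, and SPI-24 replicates 1 to 3 had 8.62 to 12.9 for Kif4 and 6.47 to 8.62 for Kif15. The 95% interval with SPI-24 was -0.01 to 0.76 for Tubb3 and -0.01 to 0.62 for Tuba1a, beside changes of 0.76 and 0.78 with SPI-77.

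Set against each other, the compounds differed in 2 of the 66 genes, a smaller share than that of all genes. SPI-77 was above SPI-24 for Tuba8 by 1.16 ± 0.28 (SE, adjusted p = 0.0394, limma) and below it for Kif21a by 1.31 on the log2 scale (SE 0.34, adjusted p = 0.0428, limma), beside 3.05% of all genes higher and 3.96% lower. Both passed 2-fold as well (0.340% of all genes higher and 2.45% lower), and in both the SPI-77 libraries did not overlap the SPI-24 libraries (16.1% of all genes higher and 15.3% lower). For Tuba1b the difference was 0.88 with a 95% interval of 0.24 to 1.52 (adjusted p = 0.0786), for Kif5b -1.50 with an interval of -2.60 to -0.39 (adjusted p = 0.0819), and for Kif5a -0.30 with an interval of -0.72 to 0.11 (adjusted p = 0.304), all by limma. Neither call held without any 1 SPI-77 library or without SPI-24 replicate 2, 3 or 4 or DMSO replicate 3, where the counts were 0 and 0. With inferred sex in the fit the call of Tuba8 was lost (1.15, adjusted p = 0.0536, limma) and that of Kif21a held (-1.84, adjusted p = 0.0162, limma). The call of Kif21a was also lost without DMSO replicate 2 or SPI-24 replicate 1. Without DMSO replicate 1 there were 6 higher and 4 lower, with 6.26% and 9.31% of all genes.

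The genes that rose and those that fell differed in transcript length and base composition. The 12 higher genes had a median GC content of 54.3% and a median transcript length of 1836 bases, and the 5 lower genes had 46.5% and 6142 bases. Over all genes tested the higher genes had 55.0% and 1660 bases and the lower genes 45.2% and 4446 bases. Across the 66 genes the log2 fold change with SPI-77 went with GC content at r = 0.43 (rho 0.44) and with the logarithm of length at r = -0.27 (rho -0.43), and across 16746 genes with GC content at r = 0.34 (rho 0.41). These are correlations across genes of the same libraries, which share depth and composition, and genes are not independent replicates. Dync1h1 was an exception in length, at 14342 bases and higher, and Kif5a in GC content, at 53.8% and lower.

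**Figure D4:**
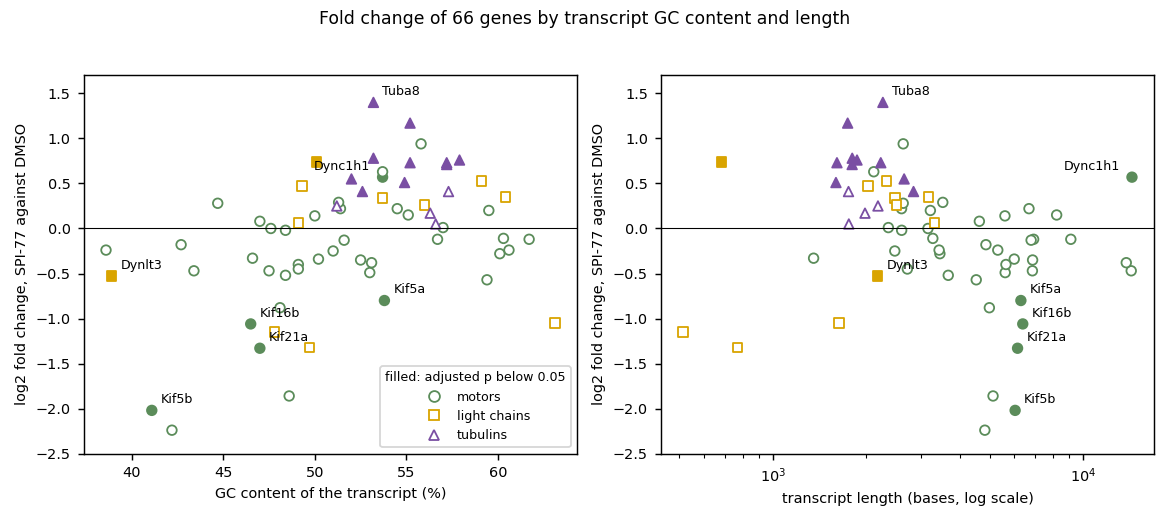
Log2 fold change with SPI-77 against DMSO (y axis) of the 66 genes by GC content of the principal transcript (left, percent) and its length (right, bases on a log axis); filled symbols passed at an adjusted p below 0.05. Tubulins gather at 51.2% to 57.9% GC and 1598 to 2840 bases above 0, and Kif5b, Kif21a and Kif16b lie lowest among filled symbols, at 41.1% to 47.0% GC and 6032 to 6383 bases.

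The libraries themselves differed in this respect. The slope of a library's log2 values on GC content was 0.27 to 0.35 per 10% GC in the SPI-77 libraries, 0.19 in DMSO replicate 1, -0.45 to -0.13 in the other DMSO libraries and -0.17 to 0.07 in the SPI-24 libraries. DMSO replicate 1, the library with low Kif5b and Kif21a, was thus the DMSO library nearest to SPI-77 in slope. It was also nearest in medium spiny level (10.15, the others 10.80 to 12.09). In slope per doubling of transcript length it was nearest as well (-0.08, the others 0.04 to 0.12). The part of each in its Kif5b and Kif21a values was not tested. When each library was corrected for GC content, 4 members passed as higher and 3 as lower, with 4.32% and 5.70% of all genes. Kif5a (-1.03, adjusted p = 0.0229), Kif5b (-1.51, adjusted p = 0.0462), Kif21a (-1.17, adjusted p = 0.0392), Tuba8 (1.19, adjusted p = 0.0259), Tuba1a (0.57, adjusted p = 0.0288) and Dynlrb1 (0.71, adjusted p = 0.0243) kept their calls by limma, and the other 11 did not. These were Dync1h1 (0.34, adjusted p = 0.0533), Kif16b, Dynlt3 and 8 of the 10 tubulins. Tuba1b had 0.89 (adjusted p = 0.0545), Tubb5 had 0.41 (adjusted p = 0.0619), and Tubg1, Tubb2a, Tubb3, Tubb4a, Tubb4b and Tuba4a had 0.23 to 0.45 with adjusted p from 0.106 to 0.189. The class medians became 0.39 for tubulins, 0.05 for light chains and -0.34 for motors. With the medium spiny level entered into the fit, 0 members passed by limma in either direction and 0% of all genes did. At an unadjusted p below 0.05 there were 5 higher and 3 lower. No share of all genes at that limit is given for this fit, so these counts are not read as a result about the members. All 17 genes, chosen for passing without that term, kept their sign there. For SPI-77 against DMSO, group and medium spiny content cannot be told apart. SPI-24 replicates 2 and 3 had a medium spiny level within the SPI-77 range. In both, Kif5a lay within the SPI-77 range too, while Tuba8, Tuba1b, Dync1h1, Dynlrb1, Kif5b, Kif21a and Kif16b lay outside it. Tubb3 lay within it in SPI-24 replicate 3 only. Libraries of like medium spiny level were not compared by a test.

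Among 98 other genes of the microtubule system, 15 passed as higher with SPI-77 (15.3%) and 11 as lower (11.2%), beside 8.03% and 9.14% of all genes, so the lower share was near that of all genes. Of 12 genes of dynactin, the partner complex of dynein, 4 passed as higher and 0 as lower, Dctn2 (0.60), Dctn3 (0.59), Dctn5 (0.58) and Actr1b (0.46). Of 13 dynein regulators and adaptors 1 passed as higher (Hook2, 0.64) and 2 as lower (Hook1, -1.20, and Hook3, -0.85), which all link dynein to cargo. Of 15 kinesin adaptors 0 passed as higher and 1 as lower, Trak2 (-0.79), which holds mitochondria to kinesin-1 and dynein, while Hap1 had -0.39 (adjusted p = 0.441, limma).

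Of 26 microtubule-associated proteins 5 passed as higher and 5 as lower. The stathmins Stmn2 (0.72), Stmn3 (0.96) and Stmn4 (0.83), which bind free tubulin dimers, and Map1a (0.41) and Mapre3 (0.54) were higher. Map2 (-1.11), which marks dendrites, Dclk1 (-1.08), Dcx (-1.13), Clasp2 (-0.89) and Camsap2 (-0.62), which bind or stabilize microtubules, were lower. Map2 had 2771, 5160, 3738 and 7046 normalized reads with DMSO and 2178, 2273 and 1726 with SPI-77, without overlap. Stmn3 had 14263, 7319, 12421 and 10466 with DMSO and 22079, 18425 and 22804 with SPI-77.

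Of 24 genes of tubulin folding and modification 3 passed as higher and 2 as lower. Tbca (0.68) and Tbcb (0.92) are cofactors that fold tubulin and Tpgs1 (0.65) is a subunit of the tubulin polyglutamylase, and these were higher. Ttll7 (-0.99), an enzyme that adds glutamates to beta-tubulin tails such as those printed above, and Tbcel (-0.65) were lower. Of 8 genes of the gamma-tubulin complex 2 passed as higher, Mzt2 (0.74) and Tubgcp2 (0.47), and 1 as lower, Mzt1 (-1.09). With SPI-24, 0 of these 98 genes passed by limma, edgeR or DESeq2. At an unadjusted p below 0.05, which 3.73% of all genes met in either direction, 4 were higher and 1 lower.

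Members that act in cilia and spindles are given here beside markers of ependymal and proliferating cells. Dynlrb2, a roadblock light chain of motile cilia, had 206, 129, 135 and 139 normalized reads with DMSO, 139, 23.3, 5.39 and 269 with SPI-24 and 49.3, 59.4 and 102 with SPI-77. Foxj1, the regulator of motile cilia in ependymal cells that line the ventricle, had 661, 690, 650 and 480, then 585, 224, 130 and 843, and 209, 310 and 282 in the same libraries, so that both were lowest in SPI-24 replicate 3 and highest in SPI-24 replicate 4. The summed level of the 8 ependymal markers was 1824 to 2431 with DMSO, 214 to 2852 with SPI-24 and 650 to 1169 with SPI-77, and 0 of the 8 passed by limma, 1 was lower at an unadjusted p below 0.05, edgeR gave 0 and DESeq2 gave 1. Pifo and Tmem212 were at 0 in a library. Kif27, a kinesin of cilia, had 47.1 to 86.2 with DMSO and 5.36 to 31.9 with SPI-77 (log2 fold change -1.86, adjusted p = 0.064, limma). Kif11, the motor that pushes spindle poles apart, had 12.1 to 51.0 with DMSO and 0 to 9.90 with SPI-77 (-2.24, adjusted p = 0.0717, limma), and the 8 markers of proliferating cells summed to 118 to 347 and 80.4 to 145. Not every such member was low with SPI-77. Kif22, a chromosome-binding spindle kinesin, had 72.8 to 114 with DMSO and 135 to 166 with SPI-77 (0.63, adjusted p = 0.0825, limma), and Kif6, a kinesin of cilia, had 0.29 (adjusted p = 0.695, limma). The part of these cells in the values of Dynlrb2, Kif27 and Kif11 was not tested.

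The promoters of 3 genes are shown because they come from genes that moved in opposite directions with SPI-77, Tuba8 and Tubb3 up and Kif21a down. The sequences are from RefSeq (GRCm38.p6) and run from 150 bases before to 30 bases from the start site onward. Capitals mark the motif GGGCGG, the motif CCAAT and the motif TATAAA, each searched on both strands, and overlapping copies were counted separately.
Tuba8 (chr6:121210584-121210763, plus strand): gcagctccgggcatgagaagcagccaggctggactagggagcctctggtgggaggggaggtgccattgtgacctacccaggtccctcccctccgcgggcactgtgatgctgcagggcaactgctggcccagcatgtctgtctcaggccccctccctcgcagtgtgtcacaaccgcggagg
Tubb3 (chr8:123411403-123411582, plus strand): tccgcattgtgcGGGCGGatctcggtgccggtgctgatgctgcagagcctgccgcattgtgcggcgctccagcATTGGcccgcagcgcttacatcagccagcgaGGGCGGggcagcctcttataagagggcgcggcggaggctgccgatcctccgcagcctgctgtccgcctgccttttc
Kif21a (chr15:91049922-91050101, minus strand): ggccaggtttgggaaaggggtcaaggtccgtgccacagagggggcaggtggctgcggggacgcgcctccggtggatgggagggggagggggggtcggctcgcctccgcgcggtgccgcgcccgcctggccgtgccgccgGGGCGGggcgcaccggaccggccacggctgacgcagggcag
Tuba8 held none of the 3 motifs in this window, Kif21a held 1 GGGCGG and Tubb3 held 2 GGGCGG and 1 CCAAT. Of 63 promoters found for 57 of the 75 genes, GGGCGG was in 7 of 11 of tubulins (63.6%), 24 of 42 of motors (57.1%) and 10 of 10 of light chains (100%), beside 31% of 32851 promoters. CCAAT was in 27.3%, 38.1% and 30%, beside 27% of all. TATAAA was in 18.2% of tubulin promoters, those of Tubb2a and Tubb4b, and in none of the motor and light chain promoters, beside 8.37% of all. A match is a string of letters and was not tested for binding.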

How the data were processed

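Poly(A) RNA of striatal punches was sequenced with a stranded kit as single reads. According to the study's methods, the authors trimmed reads with cutadapt, aligned them to GRCm38 with STAR, dropped reads that mapped to several places, counted with HTSeq and normalized with DESeq2. Their versions are not stated. Dropping such reads lowers genes with close copies. The deposited values are normalized read counts, a signal in which the authors scaled the reads of a library by its size factor. Within each library they were whole multiples of 1 step (tolerance 0.1 read) for 100.0% of values, which returned the reads. The deposited fold changes and p-values of the authors' own comparisons were not used, nor was a deposited table of their limits.

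Genes at 10 or more in at least 3 of 11 libraries were compared as log2(normalized count + 1), a scale on which changes of low genes come out too small, with limma 3.58.1 (R 4.3.3, trend and robust), all libraries in 1 fit, group as the only term, and Benjamini-Hochberg adjustment over 16768 genes. Intervals are at 95%. Levels between genes were compared per kb of the principal transcript. The members, the related genes and the marker lists were chosen with earlier results of these data known. Genes named in the text are 28 set ones, then in each comparison up to 10 lower and 6 higher genes that passed, or the 5 of lowest p where fewer than 5 passed; related genes are named where they passed, and Hap1, Kif27, Kif11, Dynlrb2, Foxj1 and other genes of the lists were added after their values were seen. Transcript length, GC content, coordinates (1-based) and shared 50-base stretches came from GENCODE annotation of GRCm38, where 99.8% of 20957 genes matched, and promoters from RefSeq. The mice are FVB/N, while the sequences are those of C57BL/6J. The alternatives were TMM scaling, edgeR 4.0.16 and DESeq2 1.42.0 on the recovered reads, pseudocounts of 0.5 and 5, no filter, a filter at 50, 2-group fits, the replicate number as a block, a correction for GC content, a medium spiny score or inferred sex as covariate, and leaving out libraries. Scripts were tested on simulated counts with the same dispersion for every gene and no differences in tissue composition or GC content between libraries. That test checks the code and does not measure false calls in these data. The labels call each library a biological replicate and name no animal or sequencing site, so p-values measure the spread between these libraries.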

Additional observations from a re-analysis of the deposited data

Results flagged for a closer look

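Of 70 groups of 4 libraries examined among the named genes, 9 had a library far from the other 3, where chance gives about 1 in 20. DMSO replicate 1 was low for Kif5b (408, the others 1813 to 2329), Kif21a (638, the others 1723 to 1946) and Kif1b (5796, the others 7804 to 8186). DMSO replicate 4 was high for Kif5c (15698, the others 10762 to 11236) and for Klc1 (10220, the others 9690 to 9723). SPI-24 replicate 4 was low for Dync1h1 (9521, the others 11487 to 11789), was at 0 for Kif15 (the others 6.47 to 8.62) and at 0 for Kif4 (the others 8.62 to 12.9), and was high for Kif16b (262, the others 114 to 127). That library had 1464 of the tested genes at 0, against 17 to 149 in the other SPI-24 libraries. The part of these libraries' composition in the values was not tested.

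The response to the compounds differed between them by limma for Tuba8, by 1.16 on the log2 scale (adjusted p = 0.0394), with all 3 SPI-77 libraries above all 4 SPI-24 libraries, and for Kif21a, with a value of -1.31 (adjusted p = 0.0428) and all 3 SPI-77 libraries below. Over all genes 3.05% passed as higher and 3.96% as lower in this comparison, a larger share than among the members. Doses are not in the labels.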

How the results depend on the processing

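For SPI-77 against DMSO (12 higher, 5 lower), TMM scaling, edgeR, DESeq2, other pseudocounts, other filters, 2-group fits and inferred sex gave 10 to 12 higher and 4 to 7 lower. These fits passed 5.54% to 11.5% of all genes as higher and 6.64% to 13.9% as lower. Correction for GC content gave 4 and 3 (3 and 3 of the original calls), and 5 and 4 with the replicate block (3 and 3). The shares of all genes were 4.32% and 5.70%, or 3.66% and 5.20% with the block. The medium spiny score as a covariate gave 0 and 0, and leaving out both libraries numbered 4 gave 8 and 2, beside 5.04% and 4.54% of all genes. Leaving out 1 library gave 0 to 16 higher and 0 to 8 lower, with 0% to 13.4% and 0% to 15.4% of all genes. With the GC correction the median became -0.34 for motors, 0.05 for light chains and 0.39 for tubulins, and Dynlt3 turned to 0.05, or 0.04 with the block. The class medians with the GC correction, without DMSO replicate 1 and without both libraries numbered 4 were computed after seeing the data. For SPI-24 against DMSO every alternative gave 0 and 0.

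For SPI-77 against SPI-24 (1 higher, 1 lower), there were 6 and 3 with DESeq2, 3 and 4 in the 2-group fit, 2 and 2 with inferred sex (Tuba8 not among them, Kif21a among them), and 2 lower with TMM scaling and with the filter at 50. The shares of all genes were 6.92% and 10.3% with DESeq2, 5.11% and 7.20% in the 2-group fit, and 4.46% and 7.76% with inferred sex. As lower, 4.28% of all genes passed with TMM scaling and 7.02% with the filter at 50. With the GC correction, with the medium spiny score and without both libraries numbered 4 there were 0 and 0. Leaving out 1 library gave 0 to 6 higher and 0 to 4 lower, with 0% to 6.26% and 0% to 9.31% of all genes.

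Samples with the same replicate number did not deviate together in all cases. Over 10 such pairs r lay between -0.16 and 0.20, 5 were over 0.1, and 6 of 11 libraries correlated best with their own number. Between libraries of unlike number r lay between -0.211 and 0.150. The labels do not say what the numbers stand for, and the main fit did not take them as pairs. Whether they mark a shared origin was not tested. DMSO replicate 4 and SPI-24 replicate 4 were the deepest libraries, at 33.8 M and 26.0 M reads, and SPI-77 has no replicate 4. The replicate block gave 11 higher and 6 lower for SPI-77 against DMSO, beside 7.60% and 9.04% of all genes. Of the calls, 10 of the 12 and 3 of the 5 were shared (Tuba4a, Tubb4a, Kif16b and Dynlt3 lost). For SPI-24 the block gave 0 and 0. Between the compounds it gave 2 higher and 1 lower, beside 3.31% and 4.82% of all genes. With the GC correction added there were 2 and 1, beside 1.40% and 2.37%. There Tuba8 kept its call and Kif21a (-1.15, adjusted p = 0.0527, limma) did not. The cause of these differences was not tested. Depth limits low kinesins such as Kif4 and Kif15, since 1 read was worth 0.468 to 1.79 normalized reads.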
